A study of Mus musculus with 6 samples.

Results

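Immediate early genes of the Egr, Nr4a and Klf families and Ier2 were followed by RNA-seq in mouse osteoclasts given verapamil, a blocker of L-type calcium channels. The 10 genes (Egr1, Egr2, Egr3, Nr4a1, Nr4a2, Klf2, Klf4, Klf6, Klf10 and Ier2) were taken by symbol from the 16775 genes of the deposited table, and all 10 passed the filter on low counts. The data held 3 libraries of verapamil-treated osteoclasts (replicates 1, 2 and 3), which were compared with 2 libraries of control osteoclasts (replicates 1 and 3). Cells of both groups were wild-type mouse marrow macrophages that had been expanded in M-CSF (30 ng/ml) and differentiated with M-CSF and RANKL (50 ng/ml). Titles give day 5 for every library, whereas the protocol describes medium changes up to day 7. The dose and timing of verapamil, the strain, sex and age of the mice, and whether replicates came from separate animals are not stated in the labels. P-values therefore measure the spread between these libraries, which may be technical.

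Immediate early genes are transcribed within minutes of a stimulus, without new protein synthesis, when kinases act on factors already bound at their promoters, such as SRF with its ternary complex partners and CREB. Egr proteins bind GC-rich sites through zinc fingers, Nr4a proteins are orphan nuclear receptors, and Klf proteins bind GC boxes or CACCC elements through zinc fingers at the carboxyl end. In myeloid cells M-CSF induces Egr genes, and Egr2 and Nr4a1 have been described in the mouse as restraining osteoclast formation, Egr2 through Id proteins and Nr4a1 through the ubiquitin ligase Cbl-b. Egr and Nr4a genes are also known targets of calcium signalling through calcineurin and NFAT.

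The promoters of 6 of the 10 genes were matched by symbol in the RefSeq table for GRCm38.p6, and 3 are shown as examples. Klf2 passed the test in the comparison of the groups, and Nr4a1 and Egr2 did not. All 3 had their highest verapamil value in replicate 3, as did Klf4 and Klf6, whose promoters were matched but are not shown. Each run is the 250 bases before an annotated start, on the plus strand. Capitals mark the CArG box bound by SRF, the core CREB site TGACG and the Egr site GCGNGGGCG, each on either strand.
Klf2, chr8:72318812-72319061: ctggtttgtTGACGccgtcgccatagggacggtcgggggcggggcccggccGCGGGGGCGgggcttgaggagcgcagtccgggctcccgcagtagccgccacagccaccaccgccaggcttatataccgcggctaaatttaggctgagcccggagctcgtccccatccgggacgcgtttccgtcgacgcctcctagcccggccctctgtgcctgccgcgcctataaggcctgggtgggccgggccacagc
Nr4a1, chr15:101266596-101266845: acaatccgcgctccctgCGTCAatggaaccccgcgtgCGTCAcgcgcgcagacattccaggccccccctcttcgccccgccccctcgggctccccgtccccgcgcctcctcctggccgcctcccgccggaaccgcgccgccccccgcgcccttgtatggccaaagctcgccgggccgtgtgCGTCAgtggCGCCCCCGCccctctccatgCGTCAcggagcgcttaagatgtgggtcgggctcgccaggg
Egr2, chr10:67537619-67537868: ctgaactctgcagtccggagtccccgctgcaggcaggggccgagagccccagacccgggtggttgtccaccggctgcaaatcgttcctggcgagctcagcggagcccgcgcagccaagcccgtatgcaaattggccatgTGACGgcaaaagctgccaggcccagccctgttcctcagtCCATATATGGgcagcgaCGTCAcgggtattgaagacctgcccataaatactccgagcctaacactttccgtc

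The Nr4a1 window held TGACG at 4 positions, the Egr2 window at 2 and the Klf2 window at 1. At least 1 TGACG stood in 17.8% of all 32851 promoter windows of that length. A CArG box was found 72 bases before the Egr2 start shown, and 1.47% of all windows held one. RefSeq lists 5 starts for Egr2, and 4 of their windows held a CArG box. The start shown was picked as the most upstream one whose window held both a CArG box and TGACG. Its matches were fixed by that choice and cannot be set against the shares of all windows. The most upstream of the 5 windows held neither motif. The site GCGNGGGCG occurred once each in the Klf2 and Nr4a1 windows, against 4.7% of all windows, and in both it overlapped a GGGCGG box, a motif of 32.7% of windows. These matches describe letters in the windows and were not measured as binding.

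With verapamil 4 of the 10 genes were lower than in controls and 0 were higher, by edgeR's quasi-likelihood test at a Benjamini-Hochberg adjusted p under 0.05 over 12619 tested genes. Those 4 were Egr1, Klf2, Klf10 and Ier2. Without verapamil replicate 1 or without verapamil replicate 2, Egr1 was the 1 gene of the 10 still called, in fits with fewer residual degrees of freedom (1485 and 1565 of all genes called, against 3200 with 5 libraries). Without control replicate 3, 5 were lower and 1, Klf6, was higher. Fits without a control library hold 1 control, which is assumed to vary like the verapamil libraries. Among all tested genes 15.4% were called lower and 9.99% higher, so the share of called genes (25.4% of all) was already large in this comparison. The median log2 fold change was -0.77 over the 10 genes and -0.01 over all tested genes. Groups did not overlap for 7 of the 10 genes, 6 of them lower and 1 (Klf6) higher with verapamil. Among all tested genes 56.7% did not overlap, 29% of all lower and 27.7% higher. Levels below are CPM, in which each count is divided by the TMM-scaled library size, and positive log2 fold changes mean higher with verapamil.

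**Figure D1:**
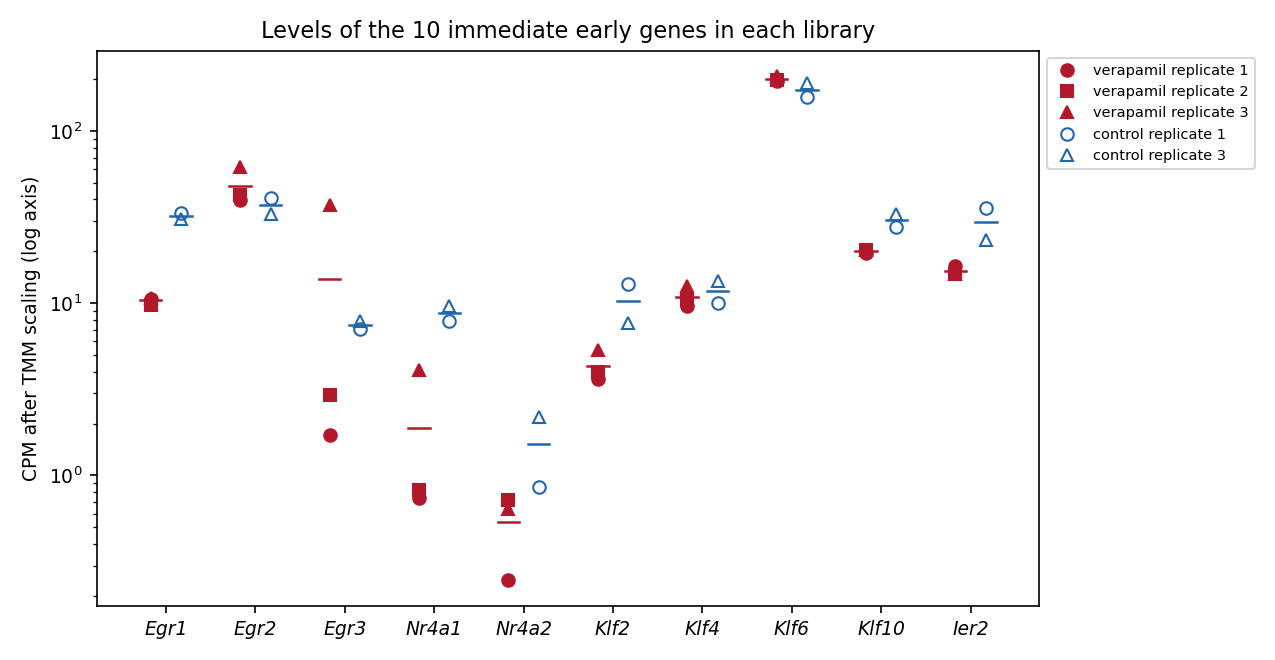
CPM after TMM scaling (log axis) of the 10 genes in the 3 verapamil libraries (filled red, left of each pair) and the 2 control libraries (open blue, right), with a bar at each group mean and the symbol giving the replicate. Egr1 sits at 9.81 to 10.7 CPM with verapamil and at 31 to 33.5 CPM in controls, and the triangle of verapamil replicate 3 stands far above the other verapamil symbols for Egr3 and Nr4a1.

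Egr1, a zinc finger factor induced by growth factor receptors and serum, had the smallest p of the 10 genes. It stood at 10.6, 9.81 and 10.7 CPM in verapamil replicates 1, 2 and 3, against 33.5 and 31 CPM in control replicates 1 and 3. Both groups were tight and far apart. The mean was 10.4 ± 0.507 CPM with verapamil (SD, n = 3) and 32.2 ± 1.76 CPM in controls (SD, n = 2). The log2 difference was -1.63 (SE 0.109, adjusted p = 0.000543 by edgeR). Egr1 was called lower in all 12 alternative fits, with log2 fold changes between -1.75 and -1.57. On GRCm38.p6 the gene (Entrez 13653) lies on chromosome 18 at 34861207 to 34864956.

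Egr2, the relative reported to restrain osteoclast formation, did not pass. Its values were 39.7, 42.2 and 62.1 CPM in verapamil replicates 1, 2 and 3, against 41 and 32.9 CPM in control replicates 1 and 3. Verapamil replicate 3 was the highest library and the groups overlapped. The log2 fold change was 0.38 (SE 0.225, edgeR adjusted p = 0.252). Egr2 (Entrez 13654) lies on chromosome 10 at 67534469 to 67542188.

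Egr3, a family member that is induced with Egr2 in lymphocytes through NFAT, had the widest spread of the 10 genes. It stood at 1.72 and 2.94 CPM in verapamil replicates 1 and 2 and at 36.9 CPM in verapamil replicate 3, against 7.06 and 7.9 CPM in control replicates 1 and 3. Both controls therefore lay between the verapamil libraries. The value in verapamil replicate 3 was 15.8 times the mean of the other verapamil libraries and 4.94 times the control mean, and it rested on 749 counts against 35 and 57. With 5 libraries the log2 fold change was 0.89 (SE 1.21, edgeR adjusted p = 0.605). Without verapamil replicate 3 it was -1.68 (SE 0.306, edgeR adjusted p = 0.0288), so that a single library turned its sign and its call. Egr3 (Entrez 13655) lies on chromosome 14 at 70077317 to 70082613.

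Nr4a1, which encodes the orphan receptor Nur77, stood just outside the threshold. It had 0.738, 0.826 and 4.09 CPM in verapamil replicates 1, 2 and 3, against 7.87 and 9.61 CPM in control replicates 1 and 3. All 3 verapamil libraries were below both controls, and replicate 3 was 5.23 times the mean of the other verapamil libraries. Counts were 15, 16 and 83 with verapamil and 175 and 225 in controls. The log2 fold change was -2.20 (SE 0.646, edgeR adjusted p = 0.0517). Without verapamil replicate 3 it was -3.48 (SE 0.264, edgeR adjusted p = 0.00695), without verapamil replicate 1 or 2 the adjusted p was 0.142 each, and DESeq2's Wald test on all 5 libraries gave an adjusted p of 0.00329. In all, Nr4a1 was called lower in 8 of 12 alternative fits, among them upper quartile scaling (adjusted p = 0.0402) and no filter on low counts (adjusted p = 0.0454). Nr4a1 (Entrez 15370) lies on chromosome 15 at 101253902 to 101274795.

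Nr4a2, which encodes the related receptor Nurr1, was the least expressed of the 10 genes. It had 0.246, 0.723 and 0.641 CPM with verapamil, against 0.854 and 2.18 CPM in control replicates 1 and 3, from 5 to 14 counts with verapamil and 19 and 51 in controls. The groups did not overlap, but the controls differed from each other by a factor of 2.55. The log2 fold change was -1.50 (SE 0.557, edgeR adjusted p = 0.0985), or -2.01 without control replicate 1 (adjusted p = 0.00875) and -0.67 without control replicate 3 (adjusted p = 0.331). Nr4a2 (Entrez 18227) lies on chromosome 2 at 57106830 to 57124003.

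Klf2, a factor that keeps endothelial cells, monocytes and T cells quiescent, was lower with verapamil. Its values were 3.64, 3.98 and 5.32 CPM in verapamil replicates 1, 2 and 3, against 12.9 and 7.68 CPM in control replicates 1 and 3. The groups did not overlap, although control replicate 1 was 1.68 times control replicate 3. The mean was 4.31 ± 0.891 CPM with verapamil (SD, n = 3) and 10.3 ± 3.72 CPM in controls (SD, n = 2). The log2 difference was -1.25 (SE 0.274, adjusted p = 0.0206 by edgeR). Setting aside control replicate 1 gave -0.83 and setting aside control replicate 3 gave -1.58. With the transcript length trend removed the log2 fold change was -1.01 (edgeR adjusted p = 0.00839). Klf2 did not pass in the fits that left out verapamil replicate 1 or 2 (adjusted p = 0.0856 and 0.0778). Klf2 (Entrez 16598) lies on chromosome 8 at 72319062 to 72321654.

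Klf10, also named TIEG1 as a gene induced early by TGF-beta, fell by a smaller amount. It had 19.6, 20.3 and 20.4 CPM with verapamil, against 27.8 and 33.1 CPM in control replicates 1 and 3, and the verapamil libraries were almost equal. The log2 fold change was -0.60 (SE 0.118, edgeR adjusted p = 0.0146). Leaving out verapamil replicate 1, 2 or 3 removed the call (adjusted p = 0.0795, 0.0747 and 0.0787) while the log2 fold change stayed at -0.58 to -0.61. Klf10 (Entrez 21847) lies on chromosome 15 at 38291464 to 38300711.

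Klf4 and Klf6 did not pass. Klf4, which takes part in monocyte differentiation, had 9.64, 10.4 and 12.6 CPM with verapamil, against 9.98 and 13.5 CPM in control replicates 1 and 3, and the groups overlapped (log2 -0.11, SE 0.189, edgeR adjusted p = 0.679). The sign turned when control replicate 3 was set aside (log2 0.13, adjusted p = 0.526). Klf6, a broadly expressed member that takes part in inflammatory gene expression of macrophages, was by far the most abundant of the 10 genes. Its values were 195, 198.2 and 208.2 CPM with verapamil, against 156.2 and 188.3 CPM in control replicates 1 and 3. The groups were close without overlapping (log2 0.22, SE 0.113, edgeR adjusted p = 0.199), and without control replicate 3 Klf6 was called higher (log2 0.36, adjusted p = 0.00272). Klf4 (Entrez 16600) lies on chromosome 4 at 55527137 to 55532475 and Klf6 (Entrez 23849) on chromosome 13 at 5861489 to 5870393.

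Ier2, an immediate early nuclear protein without zinc fingers, was lower with verapamil. It had 16.4, 14.8 and 14.8 CPM with verapamil, against 35.6 and 23.4 CPM in control replicates 1 and 3. The verapamil libraries were tight and both controls lay above them, with control replicate 1 at 1.52 times control replicate 3. The log2 fold change was -0.94 (SE 0.189, edgeR adjusted p = 0.0156). Setting aside control replicate 1 gave -0.60 and setting aside control replicate 3 gave -1.22. With the transcript length trend removed the log2 fold change was -0.66 (edgeR adjusted p = 0.00227). Ier2 and Klf2 have the shortest merged exons of the 10 genes (1522 and 1847 bases), and their falls shrank most in that fit. Over the whole table that fit called 4374 genes, against 3200 in the main fit. Ier2 did not pass in the fits that left out verapamil replicate 1, 2 or 3 (adjusted p = 0.0602, 0.0675 and 0.0711). Ier2 (Entrez 15936) lies on chromosome 8 at 84661331 to 84662852. None of the 10 genes shared exon bases with another gene in GENCODE M21, so the unknown strand setting of the counting does not touch them by that annotation.

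**Figure D2:**
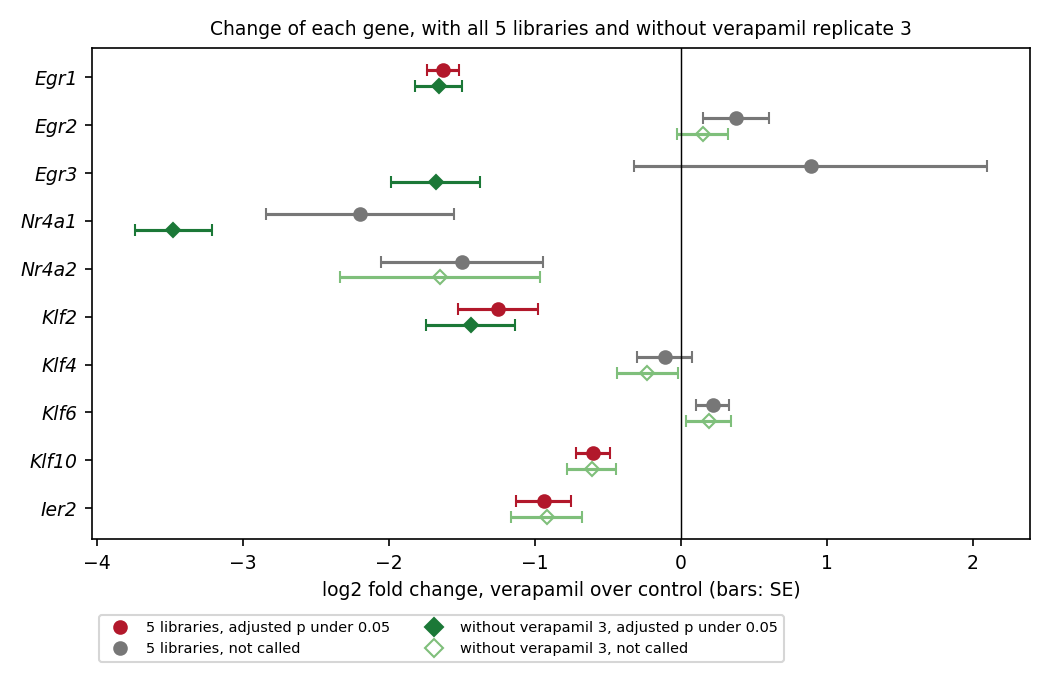
Log2 fold change of each gene (verapamil over control) with its SE, from all 5 libraries (circles, red where the adjusted p is under 0.05) and without verapamil replicate 3 (diamonds, filled dark green where it is under 0.05). Egr3 lies at 0.89 with and at -1.68 without that library, Nr4a1 at -2.20 and -3.48, and Egr1 at -1.63 and -1.66.

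Per length of merged exons, Klf6 was the highest of the 10 genes in both groups, at 45.7 ± 1.57 RPKM with verapamil (SD, n = 3) and 39.2 ± 5.16 RPKM in controls (SD, n = 2). With verapamil Egr2 (14.1 RPKM), Ier2 (10.1), Klf10 (4.81) and Klf4 (3.57) followed without overlap of neighbours. Klf2 (2.34) and Egr1 (2.32) overlapped each other, Nr4a1 (0.537) and Nr4a2 (0.132) were lowest, and Egr3 ran from 0.391 to 8.38 RPKM. In controls Ier2 (19.4 RPKM) stood above Egr2 (10.9), and Klf10 (7.28), Egr1 (7.19) and Klf2 (5.58) overlapped one another. Klf4 (3.86), Nr4a1 (2.49), Egr3 (1.7) and Nr4a2 (0.373) closed the order in controls, where Klf4 overlapped Klf2. The order of Ier2 and Egr2 thus differed between the groups, a description of RPKM levels with no test between genes.

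Verapamil replicate 3 stood apart in a narrow set of these genes. Egr3 had the largest excess of all 12619 tested genes over the higher of the other verapamil libraries, 3.61 on the log2 CPM scale, and Nr4a1 ranked 5 with 2.18. An excess of at least 1 was found for 2 of the 10 genes in replicate 3, against 0.198% of all tested genes, and for 0 of the 10 in replicates 1 and 2, against 0.151% and 0.254%. Replicate 3 was the highest verapamil library for 8 of the 10 genes, against 29.2% of all tested genes. Replicate 1 was the highest for Ier2, against 36.2% of all tested genes, and replicate 2 for Nr4a2, against 34.6%. These counts compare libraries of 1 group, were chosen after the values had been seen and carry no test.

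The relatives Nr4a3 and Fosb, both in the related lists, ranked 3 and 4 by the same measure and were named after their values were seen. Their ranks rested on few counts, 0, 5 and 43 for Nr4a3 and 6, 11 and 60 for Fosb in verapamil replicates 1, 2 and 3. Nr4a3, the remaining Nr4a receptor, had 0, 0.258 and 2.12 CPM in verapamil replicates 1, 2 and 3, against 0.539 and 0.768 CPM in controls. Fosb, an AP-1 subunit, had 0.295, 0.568 and 2.96 CPM with verapamil, against 1.62 and 1.58 CPM in controls. Rcan1, the calcineurin inhibitor that NFAT induces, was chosen after its values were seen and ranked 11, with 25, 19.9 and 62.2 CPM against 38.3 and 40.3 CPM. The genes at rank 2 (Ugt1a8) and ranks 6 to 10 (Cass4, Gm6377, Rdh1, Cxcl2 and Dennd5b) stood above Rcan1. Their excesses were 1.43 to 2.75, they are in none of the related lists, and they were named after their values were seen. Ugt1a8 and Cass4 had only 11 and 13 counts in replicate 3. For Nr4a3, Fosb and Rcan1, as for Egr3, the controls lay between verapamil replicate 3 and the other verapamil libraries. Egr1 (rank 3078), Klf10 (rank 3354) and Ier2 (rank 9370) did not share this excess. Beside the 10 genes, only the lists of relatives and of AP-1 factors held a gene with an excess of at least 1 in replicate 3. The list of 30 other primary response genes held 0, as did the lists of upstream genes, heat shock genes and cell type markers. The reason for the difference of that library was not tested.

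**Figure D3:**
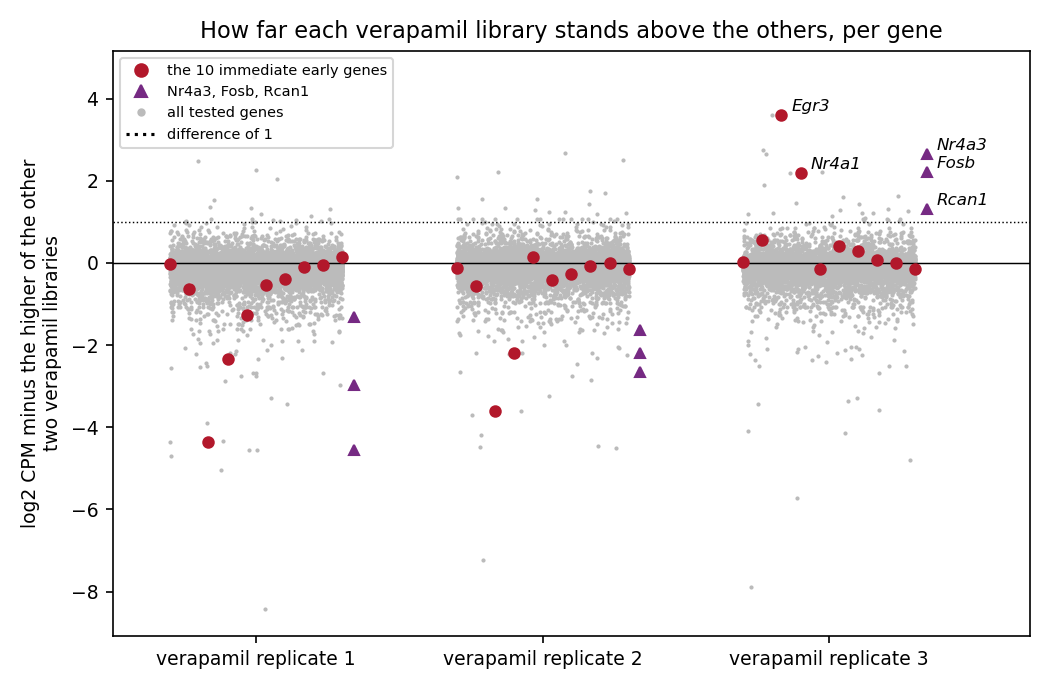
For each verapamil library and tested gene, log2 CPM minus the higher of the other verapamil libraries (grey), with the 10 immediate early genes in red, Nr4a3, Fosb and Rcan1 as purple triangles and a dotted line at a difference of 1. In replicate 3 Egr3 (3.61), Nr4a3 (2.65), Fosb (2.20), Nr4a1 (2.18) and Rcan1 (1.31) lie above the line. A gene above it in replicate 3 cannot be above it in replicates 1 and 2, and no other marked gene is above it there.

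Among 18 relatives of the same families, 12 were tested, of which 3 were lower and 1 was higher with verapamil (median log2 0.03). Klf11, the close paralog of Klf10, fell by 1.41 in log2 (SE 0.145, edgeR adjusted p = 0.00162), with 4.08, 4.75 and 4.04 CPM in verapamil libraries against 11.9 and 10.9 CPM in controls. Ier5l fell by 1.52 (adjusted p = 0.0125) and Ier3, an early response gene that affects survival, fell by 0.76 (adjusted p = 0.00387). Klf13 was higher by 0.39 (adjusted p = 0.0463), a call lost, among other fits, under upper quartile scaling, with no filter or the stricter filter on low counts, and without verapamil replicate 1, 2 or 3. Without control replicate 3, 4 relatives were called higher.

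AP-1 factors, the partners of these genes in the early response, moved both ways. Of 11 tested 5 were lower and 2 higher (median log2 -0.32). Fos, the founding member, had 5.95, 5.63 and 8.08 CPM with verapamil, against 46.3 and 43.7 CPM in controls, a larger estimated change than that of Egr1 (log2 -2.78, SE 0.171, edgeR adjusted p = 0.000472). Fosl1, Batf3 and Fosl2 fell by 1.78, 1.69 and 1.26 (adjusted p = 0.0056, 0.0309 and 0.00244), and Junb, named after its values were seen, fell by 0.68 (adjusted p = 0.00782). Atf3, a stress-induced factor, and Jun, both named after their values were seen, were higher by 0.74 and 0.54 (adjusted p = 0.00395 and 0.0169). Without verapamil replicate 1, 2 or 3 only 1 AP-1 factor was called higher.

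Of 30 other primary response genes 17 were lower and 5 higher with verapamil, with a median of -0.61. Ccn2 and Ccn1, secreted matricellular proteins induced by SRF and YAP, had 16.2 ± 0.437 and 13.8 ± 1.25 CPM with verapamil (SD, n = 3), against 98.2 ± 8.07 and 69.1 ± 6.63 CPM in controls (SD, n = 2). Their log2 fold changes were -2.60 and -2.32 (edgeR adjusted p = 0.000407 and 0.000437). Phlda1 fell by 2.00 (adjusted p = 0.000669), and Arc, at 3 to 6 counts with verapamil, fell by 1.95 (adjusted p = 0.0214). The 5 that were higher, named after their values were seen, were Gadd45a (1.45), Dusp4 (1.34), Dusp2 (1.24), Sgk1 (1.23) and Gadd45b (0.82), with adjusted p from 0.00105 to 0.0313. Without verapamil replicate 1, 2 and 3 the count of lower genes was 9, 8 and 11, and without replicate 1 or 3 that of higher genes was 3. Replicate 3 was the highest verapamil library for 18 of these 30 genes and for 7 of the 11 AP-1 factors, against 29.2% of all tested genes. These counts carry no test.

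**Figure D4:**
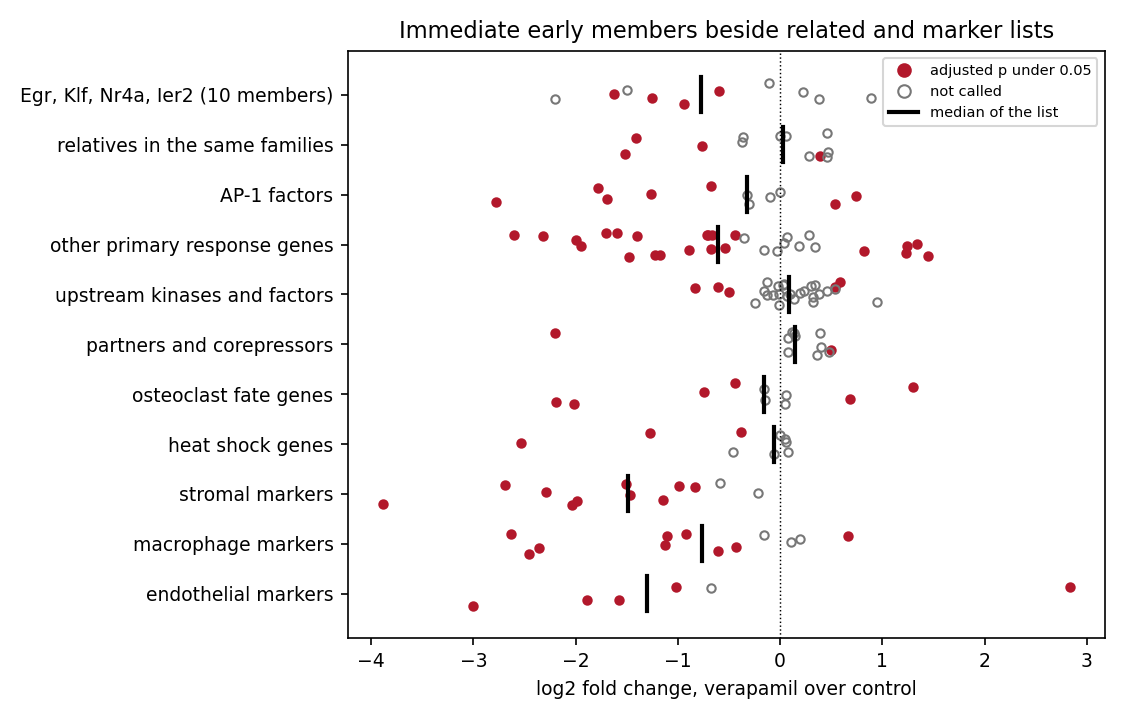
Log2 fold change (verapamil over control) of each tested gene of the 10 members and of related and marker lists, filled red where the adjusted p is under 0.05, with a black bar at each list's median. The 10 members have a median of -0.77 and the other primary response genes of -0.61, while upstream kinases and factors run from -0.83 to 0.95 (median 0.08) and stromal markers have a median of -1.49.

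Of 28 upstream kinases, receptors and factors 3 were lower and 2 higher (median log2 0.08), where 25.4% of all tested genes were called. Crem, a CREB relative whose ICER form is itself induced early, fell by 0.83 (edgeR adjusted p = 0.00418), Csf1r, the M-CSF receptor, by 0.61 (adjusted p = 0.0139) and the ternary complex factor Elk3 by 0.50 (adjusted p = 0.013). The kinase gene Mapk7 and the SRF coactivator gene Mrtfb were higher by 0.54 and 0.59 (adjusted p = 0.0143 and 0.0267). Leaving out verapamil replicate 1, 2 or 3 left 1 of the 28 called lower and 0 higher. Without control replicate 1, 5 of the 28 were called higher, and without control replicate 3, 12 were. With the length trend removed the count of higher genes was 6. Srf itself had 33.8, 35.5 and 35.7 CPM with verapamil, against 39 and 39.1 CPM in controls (log2 -0.16, adjusted p = 0.275).

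Of 11 tested partners and corepressors, Rxra, the retinoid receptor that pairs with Nr4a1 and Nr4a2, was higher (log2 0.50, edgeR adjusted p = 0.0139) and Pitx1 was lower (log2 -2.20, adjusted p = 0.00903, from 8 to 14 counts with verapamil). The Egr corepressors Nab1 and Nab2 did not pass (log2 0.39 and 0.12, adjusted p = 0.127 and 0.441). Rxra was not called in fits that included those without verapamil replicate 1, 2 or 3, while 6 genes of this list were called higher without control replicate 3.

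Genes that Egr2 and Nr4a1 are reported to act on did not share 1 direction. Cblb, the ubiquitin ligase placed downstream of Nr4a1, was higher with verapamil, at 133.2, 152.1 and 151.1 CPM against 48.4 and 69.5 CPM in controls (log2 1.30, SE 0.176, edgeR adjusted p = 0.00403). Id2, named after its values were seen, was higher by 0.68 (adjusted p = 0.017), whereas Id1 and Id3 fell by 2.19 and 2.02 (adjusted p = 0.00411 and 0.000543). Nfatc1, the master factor of osteoclast formation, had 72.2 ± 2.51 CPM with verapamil (SD, n = 3) and 80 ± 15.6 CPM in controls (SD, n = 2; log2 -0.15, adjusted p = 0.449). In that list of 10 genes 4 were lower and 2 higher, with a median of -0.15. Prdm1, a repressor that promotes osteoclast formation, and Tnfrsf11a, the gene of RANK (named after its values were seen), were the others that fell (0.74 and 0.44, adjusted p = 0.0258 and 0.043). Without verapamil replicate 1, 2 or 3 the counts were 2 lower and 1 higher.

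The 3 tested genes whose centred log2 CPM lay nearest to Egr1 over the 5 libraries were Epsti1, Sparc and Plpp1, with root mean square differences of 0.043, 0.0462 and 0.0504. Sparc, for example, had 89.9, 83.1 and 85.6 CPM with verapamil, against 272.9 and 269.9 CPM in controls.

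Libraries held 20202340 to 21494523 estimated counts. Of 10 osteoclast markers 7 were lower with verapamil and 1 higher, the list summing to 3304.2 to 3454.3 CPM with verapamil and to 7025.2 to 7702.6 CPM in controls. Ocstamp, Acp5, Mmp9 and Calcr fell, with log2 fold changes of -2.0, -1.85, -1.81 and -1.73 (edgeR adjusted p from 0.000437 to 0.0025). The marker that was higher, Atp6v0d2, was named after its values were seen (log2 0.98, edgeR adjusted p = 0.00159). Itgb3 and Nfatc1, also named after their values were seen, did not pass (log2 0.05 and -0.15, edgeR adjusted p = 0.838 and 0.449). Markers of other cells changed too. The median log2 fold change was negative in each such list, from -1.74 (mast cell and basophil, 3 tested) to -0.16 (lymphocyte, 2 tested). Summed CPM were nevertheless higher with verapamil for the endothelial, the lymphocyte and the mast cell and basophil lists. Stromal markers summed to 463 to 480.1 CPM with verapamil and to 1070.0 to 1268.8 CPM in controls, with 10 of 12 tested lower and 0 higher. Alpl, Col3a1, Cxcl12 and Postn fell, at log2 fold changes of -3.89, -2.69, -2.29 and -2.04 (edgeR adjusted p from 0.000407 to 0.00576). No listed stromal gene was at 0 in all 5 libraries, while Alpl was at 0 in verapamil replicate 2 and Lum in control replicate 3. Macrophage markers summed to 6172.8 to 6317.4 CPM with verapamil and to 9160.5 to 10201.3 CPM in controls, with 8 of 12 lower and 1 higher. C1qa, Cx3cr1, Fcgr1 and C1qc had log2 fold changes of -2.63, -2.46, -2.36 and -1.13 (edgeR adjusted p from 0.000437 to 0.00339). The gene that was higher, Mertk, was named after its values were seen (log2 0.66, edgeR adjusted p = 0.0404) and was not called without verapamil replicate 1, 2 or 3. Endothelial markers, relevant to Klf2, summed to 39.8 to 45 CPM with verapamil and to 32.4 to 32.6 CPM in controls, mostly Kdr and Eng. Of 6 tested, 4 endothelial markers were lower (2 without verapamil replicate 1, 2 or 3) and Kdr was higher. Pecam1, Emcn, Egfl7, Eng and Kdr had log2 fold changes of -3.0, -1.89, -1.58, -1.02 and 2.84 (edgeR adjusted p from 0.00118 to 0.0493). The defining marker Cdh5 had 0.258 to 0.344 CPM with verapamil, against 0.27 and 1.02 CPM in controls, and Cldn5 was at 0 in all verapamil libraries, against 0.0449 and 0.171 CPM in controls. Neutrophil markers summed to at most 3.41 CPM with verapamil and 8.49 CPM in controls, lymphocyte markers to at most 1.57 and 1.17 CPM, and mast cell and basophil markers to at most 5.52 and 3.1 CPM. In these lists S100a9, Mcpt8 and Gata2 were called lower and Lck and Kit higher (log2 -2.52, -2.13, -1.74, 1.34 and 2.24, edgeR adjusted p from 0.00131 to 0.0388). Of 9 heat shock genes, read for handling of the cells, 3 were lower and 0 higher (median log2 -0.06), with log2 fold changes of -2.54 for Hspb1, -1.27 for Hspa1b and -0.38 for Hsp90aa1. Hspa1b has a near-identical copy, Hspa1a (log2 -0.46, edgeR adjusted p = 0.169), and the counting could split reads between them. In bulk RNA fewer cells of a type and less RNA per cell cannot be told apart, and the part of other cell types in the results was not tested.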

How the data were processed

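RNA was extracted with Trizol and 1.3 ug of total RNA went into each SMARTER mRNA library, per the labels' protocols. The authors deposited estimated counts of reads per gene with 2 decimals, not normalized as far as the values show. Per the submitters' processing notes the genome build was GRCm38 (mm10). For aligner, counting program and strand setting, the sources used here name none. Of 6 labelled libraries 5 were used, and control replicate 2 was not analysed here.

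Counts were rounded. In R 4.3.3, edgeR 4.0.16 used TMM factors, its expression filter (minimum count 10, minimum total 15) and a quasi-likelihood test with group as the only term, leaving 3 residual degrees of freedom. SE is the absolute log2 fold change over the square root of F. The code of the fit was checked on simulated counts. These held no length trend and no outlying library, so that check does not bear on the calls made here. RPKM used merged exon lengths of GENCODE M21. DESeq2 1.42.0 was an alternative, with other scaling, filters, a length correction, a replicate block and leaving out each library. Pairwise excess used log2 CPM with a prior count of 2.

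The members and lists were chosen with earlier results of these data known. Named were all members, up to 4 called genes per list by size of change (all where 5 or fewer were called), and the 3 genes nearest in profile to the member with the smallest p. Any other gene is marked as chosen after its values were seen, apart from genes named for their role in the text.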

Additional observations from a re-analysis of the deposited data

How the results depend on the processing

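Of 119 alternative values of the 10 genes, 98 kept both the direction and the side of the threshold, 11 passed in addition, 8 no longer passed and 2 changed sign. The reversed values were Egr3 without verapamil replicate 3 (-1.68, in a range of -1.68 to 1.41 over the fits without 1 library) and Klf4 without control replicate 3 (0.13, in a range of -0.31 to 0.13). Leaving out 1 library at a time gave 1460 to 7808 called genes in place of 3200, 1 to 6 of the 10 genes called lower in place of 4, and 0 to 1 called higher in place of 0. With 1 control left the spread comes from the verapamil libraries alone. Under upper quartile scaling all tested genes had a median log2 change of -0.13, and 28.2% of called genes were higher, against 39.4% under TMM, 45.7% without control replicate 1, 51% without control replicate 3, 46.7% with DESeq2's Wald test and 30.1% to 32.1% without a verapamil library; 5 of the 10 genes were called lower under upper quartile scaling and none higher. The groups share replicate numbers 1 and 3 without a stated link, and with 2 controls the correlations of their deviations mirror each other, at 0.289 and 0.022 for same-numbered and from -0.289 to 0.289 for differently numbered libraries. With the replicate number as a block 3317 genes were called, 6 of the 10 lower and 0 higher, with Nr4a1 (-2.09) and Nr4a2 (-1.76) in addition. Klf13 and Rxra were not called in that fit, and 4 upstream genes were called higher. The block leaves fewer residual degrees of freedom than the main fit, and verapamil replicate 2 has no control of its number. The SE of Egr3 was 0.27 with the block, against 1.21 in the main fit. Calls of the block fit therefore do not measure the spread between replicates. Nr4a2 could not be fitted under the stricter filter (at least 50 counts), which removed it. Low counts limit Nr4a2, Arc, Nr4a3 and Fosb.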
